A study of Mus musculus with 12 samples.

Results

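The ADAM and ADAMTS proteases were followed in the kidneys of C57BL/6 mice with chronic kidney disease under time restricted feeding (CKD TRF), with chronic kidney disease alone (CKD), and without the disease (Control). All symbols that consist of Adam or Adamts, a number and at most a letter a or b were taken, which gave 52 genes, 33 ADAM and 19 ADAMTS, of 23238 symbols in the files. Each group had 4 libraries of whole kidney, made by QuantSeq, which reads the 3′ ends of polyadenylated RNA, so a value shows a gene's transcript level and not its isoforms or its protease activity. The labels used here give the strain and tissue but not how the disease was induced, the feeding hours, the age or sex of the mice, or if the libraries are from different animals. The p-values therefore measure the spread between libraries, which may be technical.

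ADAMs are membrane-anchored metalloproteases that cut the outer parts of other membrane proteins, a step called shedding, and so release cytokines, growth factors and their receptors. ADAMTS proteases are secreted, carry thrombospondin repeats, and cut matrix proteins such as procollagens, proteoglycans and fibrillin-linked proteins. In the kidney, ADAM17 and ADAM10 are known as sheddases of tubule, endothelial and immune cells, and several ADAMTS genes are known from mesenchymal cells. A number of mouse ADAMs are made mainly in testis, epididymis or sperm. Several ADAMs, among them ADAM11, ADAM22 and ADAM23, are known to have lost the catalytic zinc site and act as adhesion proteins or receptors.

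The zinc site is shown for the 9 members whose level passed the test in CKD against Control, because it is the part that makes these proteins proteases. The letters are the codons of the metzincin zinc-binding motif in the longest coding sequence of each gene, taken from GENCODE M21 transcripts on GRCm38 (mm10). The codons of the 3 zinc-binding histidines and of the catalytic glutamate are in capitals. Where the coordinates span more than 33 bases, the site is split by an intron.
Adamts2 (chr11:50775403-50776134, plus strand): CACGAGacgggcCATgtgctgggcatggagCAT
Adamts10 (chr17:33538157-33538279, plus strand): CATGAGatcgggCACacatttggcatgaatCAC
Adamts1 (chr16:85799191-85799545, minus strand): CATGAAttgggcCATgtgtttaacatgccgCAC
Adamts5 (chr16:85878015-85887826, minus strand): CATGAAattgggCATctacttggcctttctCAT
Adam8 (chr7:139987893-139987925, minus strand): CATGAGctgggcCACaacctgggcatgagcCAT
Adam12 (chr7:133961158-133961190, minus strand): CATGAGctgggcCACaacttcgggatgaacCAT
Adam19 (chr11:46125050-46125082, plus strand): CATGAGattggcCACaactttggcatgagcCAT
Adam17 (chr12:21336732-21336764, minus strand): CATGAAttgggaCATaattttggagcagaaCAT
Adam9 (chr8:24990326-24990358, minus strand): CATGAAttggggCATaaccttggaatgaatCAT

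All 9 of these members carried the motif, and so did 38 of the 52 genes. It was matched with glycine or asparagine at its eighth place, and the codon there began with gg in 33 of the 38. In the other 5, all ADAMTS genes and among them Adamts1, it was aat or aac. The site lay within 1 exon in 19 of the 20 ADAM genes that had it and was split by an intron in all 18 such ADAMTS genes. Among the tested members, Adam11 and Adam22 held no match.

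Levels are given as scaled reads, which are the deposited log2 values turned back to a linear scale with the added 1 removed. 1 read came to 0.0560 to 0.102 scaled reads. Libraries held 14141307 to 17204213 reads in CKD TRF, 14507909 to 16852656 in CKD and 10985691 to 12806108 in Control. A count of 0 allows up to 3 reads, or 0.168 to 0.306 scaled reads, and this limit covers counting error only. Because the libraries were read at the 3′ end, a level is a number of reads per gene and is compared between groups, not between genes. Changes are differences of group means of the deposited log2 values, with the standard error (SE) from limma, and they understate the change of genes near 0. In bulk tissue, fewer cells of a type and less RNA per cell cannot be told apart.

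Kidney markers such as Slc34a1, Lrp2 and Umod were present in all libraries, with summed levels of 7110 to 7750 scaled reads in CKD TRF, 6530 to 7000 in CKD and 5190 to 8320 in Control. In 5 libraries, CKD TRF replicates 1, 3 and 4 and CKD replicates 2 and 4, the mean log2 level of 9 adipose markers lay more than 1 above the highest Control library. Summed adipose markers came to 21.7 to 192 scaled reads in CKD TRF, 22.5 to 510 in CKD and 7.65 to 16.1 in Control. Urothelial markers came to 31.9 to 120 scaled reads in CKD TRF, 28.5 to 140 in CKD and 3.68 to 14.6 in Control. Values without the 5 libraries are given where a call was lost. Only 1 CKD TRF and 2 CKD libraries are left then, the lone library is assumed to vary like the other groups, and a lost call there does not show a smaller change.

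Of the 52 members, 19 were in the upper 60% of genes by mean log2 level and were tested, 10 ADAM and 9 ADAMTS. A further 18 were above 0 in at least 1 library but below that level, and 15 were at 0 in all 12 libraries. Of the 21 ADAMs of testis, epididymis or sperm, 13 were at 0 throughout and only Adam1a was tested, whereas 9 of the 12 ADAMs of somatic tissues were tested and none of those 12 was at 0. Of the 19 ADAMTS genes, Adamts18 and Adamts19 were at 0 in all libraries. The members just above the level limit were Adamts6, Adamts16 and Adam1a, with a mean log2 level of 0.79, 0.80 and 0.82, and those just under it were Adamts4 and Adam28 with 0.66 and 0.63.

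In CKD against Control, 9 of the 19 tested members passed an adjusted p of 0.05 (limma, Benjamini-Hochberg over 13943 genes), 7 higher and 2 lower. This share, 47.4%, was near that of all tested genes, of which 45.4% were called, 23.6% higher and 21.8% lower. The 7 that rose were Adamts2, Adamts10, Adam8, Adam12, Adamts1, Adam19 and Adamts5, and the 2 that fell were Adam9 and Adam17. The median change over the tested members was 0.25 on the log2 scale, beside 0.02 over all tested genes. In 8 of the 19 members the CKD and Control libraries did not overlap, beside 39.5% of all tested genes. CKD was the higher group in 6 of these, beside 20.3% of all tested genes, and the lower in 2, beside 19.2%.

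Summed over the 19 ADAMTS genes, the libraries held 178 to 223 scaled reads in CKD TRF, 207 to 249 in CKD and 111 to 156 in Control, so that both diseased groups lay above Control in every library. Adamts1 and Adamts5 made up much of these sums, whose means were 202 scaled reads in CKD TRF, 231 in CKD and 136 in Control. In the same order, Adamts1 had means of 92.4, 112 and 62.8 and Adamts5 of 56.6, 61.4 and 43.5. The 33 ADAM genes summed to 301 to 320 scaled reads in CKD TRF, 300 to 323 in CKD and 349 to 368 in Control. Adam17 made up 51.8% to 54.2% of the ADAM sum in CKD TRF, 51.8% to 54.6% in CKD and 55.3% to 59.3% in Control. The ADAMTS sums of diseased libraries stayed above Control without overlap when scaled to equal sums, centred on library medians or quantile-normalized. CKD TRF and CKD overlapped with each other under each scaling. The ADAM sums stayed lower in diseased than in Control libraries after median centring, without overlap. They were 294 to 318 in CKD TRF, 290 to 317 in CKD and 362 to 389 in Control. With equal sums they came to 302 to 326 in CKD TRF, 321 to 348 in CKD and 320 to 352 in Control, which overlap. After quantile normalization they were 306 to 326, 307 to 332 and 324 to 349 in the same order, which also overlap.

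**Figure D1:**
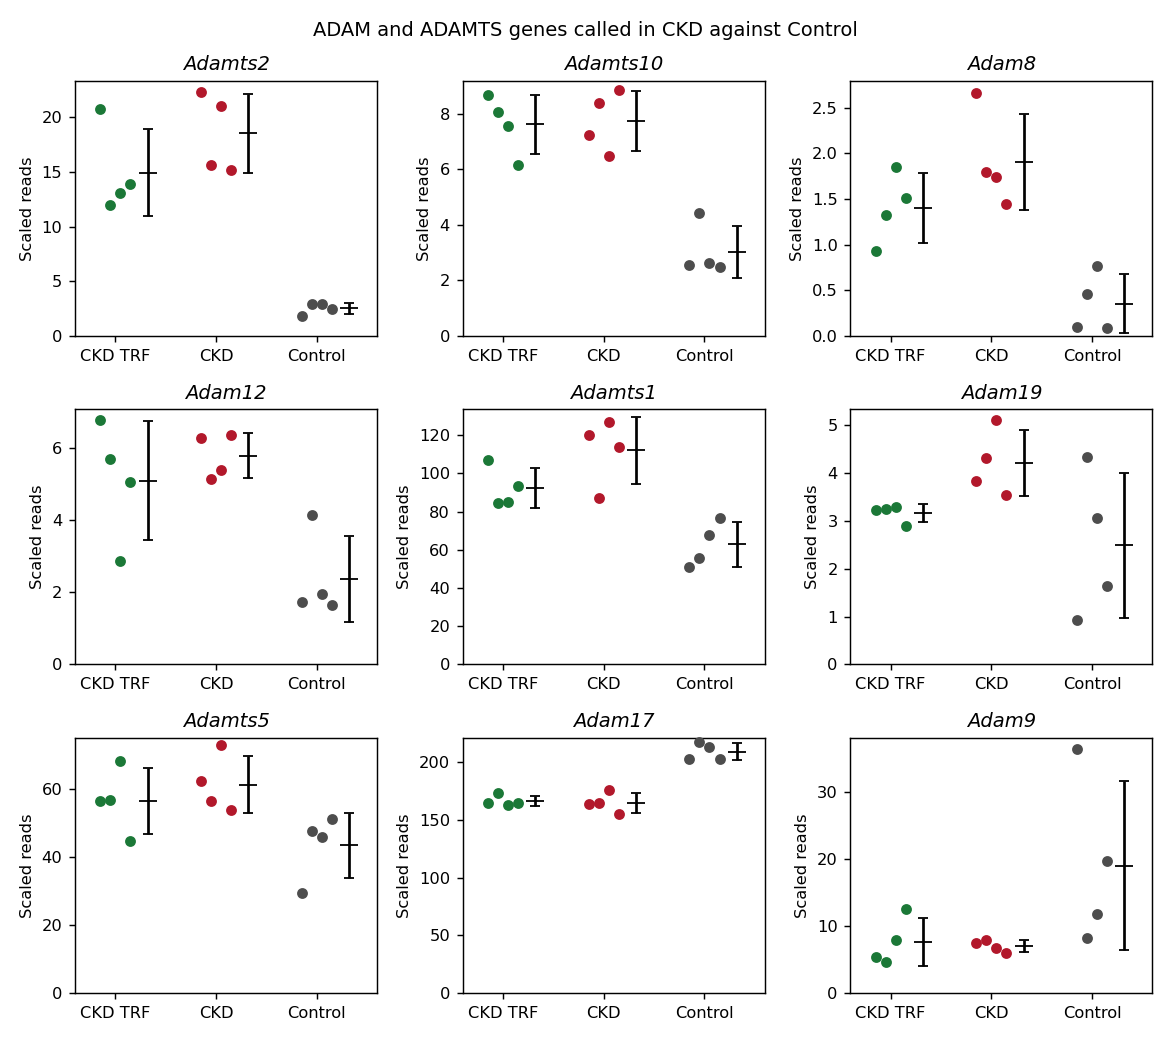
Scaled reads of the 9 members called in CKD against Control, on a linear axis from 0, with 1 point per library in CKD TRF, CKD and Control and the mean with its SD (n = 4) beside the points. Adamts2 lies at 12 to 22.3 in all 8 diseased libraries and at 1.84 to 2.95 in Control, whereas Adam17 is lower in the diseased libraries, at 155 to 176 against 203 to 218 in Control.

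Of the 9 tested ADAMTS genes, which encode secreted proteases, 4 were called in CKD against Control, beside 45.4% of all tested genes. Adamts2, a procollagen N-proteinase that trims the amino-terminal propeptide of fibrillar collagens, had 20.8, 12, 13.1 and 13.9 scaled reads in CKD TRF, 22.3, 15.6, 21 and 15.2 in CKD, and 1.84, 2.95, 2.89 and 2.47 in Control. Every diseased library was above every Control library. Its mean was 18.5 ± 3.66 scaled reads in CKD and 2.54 ± 0.512 in Control (SD, n = 4 each), a 7.28-fold ratio. The log2 change was 2.46 ± 0.20 (SE, limma adjusted p = 8.21e-09) for CKD against Control and 2.16 ± 0.20 (adjusted p = 8.28e-08) for CKD TRF against Control.

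Adamts10, which in humans is linked to fibrillin microfibrils, had 8.67, 8.09, 7.57 and 6.18 scaled reads in CKD TRF, 7.26, 8.40, 6.50 and 8.85 in CKD, and 2.55, 4.42, 2.64 and 2.47 in Control. The diseased libraries again did not overlap with Control, of which replicate 2 was the highest. The log2 change was 1.14 ± 0.20 (limma adjusted p = 9.39e-05) in CKD against Control and 1.12 ± 0.20 (adjusted p = 0.00017) in CKD TRF against Control. The other member listed here as fibrillin-linked, Adamts6, had a log2 difference of 0.25 ± 0.28 in CKD against Control. It did not pass the test (limma adjusted p = 0.497).

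Among the 7 proteoglycanase ADAMTS genes, whose products cut aggrecan and versican, 4 were tested and Adamts1 and Adamts5, neighbours on chromosome 16, rose in CKD against Control. Adamts1 had 107, 84.4, 85.1 and 93.2 scaled reads in CKD TRF, 120, 87.2, 127 and 114 in CKD, and 51.1, 55.6, 67.9 and 76.4 in Control, with no overlap of either diseased group with Control. Its log2 change was 0.83 ± 0.13 (limma adjusted p = 4.99e-05) in CKD against Control and 0.56 ± 0.13 (adjusted p = 0.00257) in CKD TRF against Control. With the 1 CKD TRF library left without the 5 high in adipose markers, the difference was 0.44 and did not pass (adjusted p = 0.213).

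Adamts5, known as a main aggrecan-degrading protease of mouse cartilage, had 56.5, 56.8, 68.4 and 44.6 scaled reads in CKD TRF, 62.3, 56.4, 72.9 and 53.8 in CKD, and 29.4, 47.6, 45.8 and 51.1 in Control. The CKD libraries were all above Control, while CKD TRF replicate 4 lay among the Control libraries. The log2 change in CKD against Control was 0.51 ± 0.16 (limma adjusted p = 0.012). That call was lost without Control replicate 1, the lowest library (0.34, adjusted p = 0.0561), and without CKD replicate 3, the highest (0.42, adjusted p = 0.05, just over the threshold). In CKD TRF against Control the log2 difference was 0.39 ± 0.16, which did not pass (adjusted p = 0.0577). It passed without Control replicate 2 (0.44, adjusted p = 0.0461), without Control replicate 4 (0.47, adjusted p = 0.0319), without CKD TRF replicate 4 (0.49, adjusted p = 0.0245), with equal sums (0.53, adjusted p = 0.0113) and after quantile normalization (0.42, adjusted p = 0.0447). The other tested proteoglycanases, Adamts9 and Adamts15, had log2 differences of 0.21 ± 0.28 and 0.08 ± 0.27 in CKD against Control, and neither passed.

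Adamts7, a protease of cartilage oligomeric matrix protein, was at 1.46 to 3.46 scaled reads in CKD TRF, 0.813 to 2.69 in CKD and 0.639 to 1.84 in Control, and the groups overlapped. Its log2 difference in CKD against Control, 0.59 ± 0.28, did not pass (limma adjusted p = 0.0957), but it passed without CKD replicate 3 (0.84, adjusted p = 0.0193), without Control replicate 2 (0.76, adjusted p = 0.0434), with equal sums (0.73, adjusted p = 0.0401) or with sample weights (0.70, adjusted p = 0.0491). In CKD TRF against Control it was 0.60 ± 0.28 (adjusted p = 0.0996), and it passed without Control replicate 2 (0.77, adjusted p = 0.0468). The 3′ end of Adamts7 overlaps exons of Tbc1d2b on the opposite strand, a gene that was called higher by 1.03 ± 0.19 in CKD against Control (adjusted p = 0.000169). The strand setting of the counting is not given in the sources used here, so the reads of the pair cannot be told apart. Adamts16, the remaining tested ADAMTS gene, had a log2 difference of 0.40 ± 0.33 in CKD against Control (adjusted p = 0.348) and passed only without CKD replicate 4, which had no read (0.75, adjusted p = 0.0496).

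**Figure D2:**
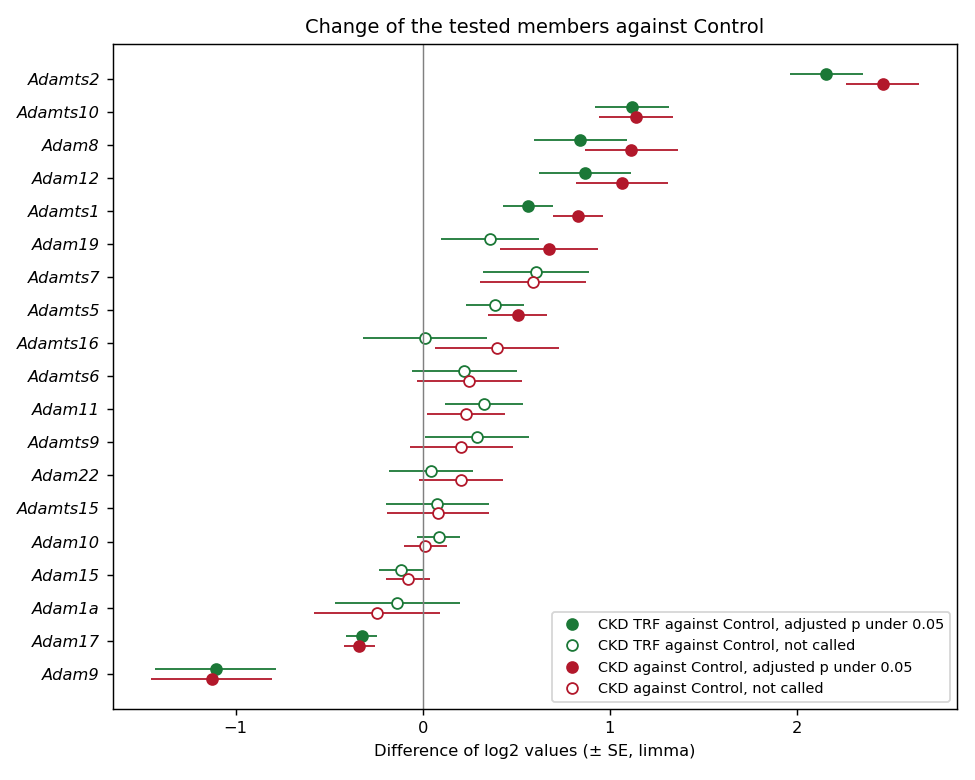
Log2 difference (± SE from limma, 4 libraries per group) of the 19 tested members, with CKD TRF against Control and CKD against Control drawn as neighbouring points, filled where the adjusted p is under 0.05. Adamts2 stands highest at 2.16 and 2.46, Adam9 lowest at -1.11 and -1.13, and both comparisons share the Control libraries.

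Of the 9 tested ADAMs of somatic tissues, 3 rose and 2 fell in CKD against Control, beside 23.6% and 21.8% of all tested genes. Adam8, a sheddase known from myeloid leukocytes, had 0.931, 1.33, 1.85 and 1.51 scaled reads in CKD TRF, 2.66, 1.79, 1.74 and 1.44 in CKD, and 0.102, 0.461, 0.765 and 0.0913 in Control. No diseased library reached down to Control, but these levels rest on 13 to 41 reads per diseased library and 1 to 9 per Control library. The log2 change was 1.12 ± 0.25 (limma adjusted p = 0.00109) in CKD against Control and 0.84 ± 0.25 (adjusted p = 0.0111) in CKD TRF against Control. The CKD TRF call was lost after quantile normalization (0.47, adjusted p = 0.15). With the 1 CKD TRF library left without the 5 high in adipose markers, the difference was of similar size but did not pass (0.81, adjusted p = 0.238). Exons of the antisense gene Gm16201 overlap Adam8.

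Adam12, known from mesenchymal cells and muscle precursors, had 6.80, 5.70, 2.86 and 5.06 scaled reads in CKD TRF, 6.29, 5.16, 5.40 and 6.36 in CKD, and 1.74, 4.14, 1.96 and 1.64 in Control. All CKD libraries were above Control, and CKD TRF replicate 3 was under Control replicate 2. The log2 change was 1.07 ± 0.25 (limma adjusted p = 0.00155) in CKD against Control and 0.87 ± 0.25 (adjusted p = 0.0089) in CKD TRF against Control. The CKD TRF call was lost after quantile normalization (0.56, adjusted p = 0.0807). In the 1 CKD TRF library left without the 5 high in adipose markers, the difference was larger but did not pass (1.05, adjusted p = 0.11).

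Adam19, a sheddase of neuregulins, had 3.22, 3.25, 3.28 and 2.89 scaled reads in CKD TRF, 3.83, 4.31, 5.11 and 3.54 in CKD, and 0.919, 4.33, 3.06 and 1.64 in Control. The Control libraries spread over the range of both diseased groups. The log2 change of 0.67 ± 0.26 in CKD against Control passed narrowly (limma adjusted p = 0.0404). It no longer passed without Control replicate 1 (0.42, adjusted p = 0.178), Control replicate 4 (0.58, adjusted p = 0.107), CKD replicate 1 (0.71, adjusted p = 0.0581), CKD replicate 2 (0.66, adjusted p = 0.0795) or CKD replicate 3 (0.59, adjusted p = 0.104). Adam19 was also not called after median centring (0.57, adjusted p = 0.0816) or quantile normalization (0.32, adjusted p = 0.323), with no filter on low values (0.67, adjusted p = 0.0752), in a fit of CKD and Control alone (0.67, adjusted p = 0.0627), or with the 2 CKD libraries left without those high in adipose markers (0.75, adjusted p = 0.146). Exons of the antisense genes Gm16033 and Gm16034 overlap Adam19.

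Adam17, the convertase of tumour necrosis factor and the sheddase of its receptors and of epidermal growth factor receptor ligands, was the member with the most reads. It had 165, 173, 163 and 165 scaled reads in CKD TRF, 164, 165, 176 and 155 in CKD, and 203, 218, 213 and 203 in Control. All 8 diseased libraries were below the 4 Control libraries. The fall was small, with log2 changes of -0.34 ± 0.08 (limma adjusted p = 0.00224) in CKD against Control and -0.33 ± 0.08 (adjusted p = 0.00389) in CKD TRF against Control.

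The call for Adam17 depended on the scaling of the libraries. Summed scaled reads were 987502 to 1025504 in CKD TRF, 940904 to 978104 in CKD and 1076402 to 1179702 in Control. Adam17 stayed called in both comparisons with Control after median centring. With libraries scaled to equal sums, the median change of all tested genes moved to 0.23 in CKD against Control and 0.14 in CKD TRF against Control. The change of Adam17 was then -0.11 (limma adjusted p = 0.282) in CKD against Control and -0.18 (adjusted p = 0.0985) in CKD TRF against Control, below the median of all genes in both. After quantile normalization it was -0.09 (adjusted p = 0.399) and -0.11 (adjusted p = 0.29), and with the 2 CKD libraries and 1 CKD TRF library left without the 5 high in adipose markers -0.29 (adjusted p = 0.0945) and -0.27 (adjusted p = 0.311), in CKD against Control and CKD TRF against Control in that order. The last exons of Adam17 overlap those of Iah1 on the opposite strand. Iah1 fell as well, by 0.71 ± 0.09 in CKD against Control (adjusted p = 3.08e-06) and by 0.58 ± 0.09 in CKD TRF against Control (adjusted p = 4.93e-05), and without the strand setting the reads of the pair cannot be told apart.

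Adam9, a broadly expressed sheddase, had 5.30, 4.64, 7.87 and 12.5 scaled reads in CKD TRF, 7.52, 7.85, 6.67 and 5.90 in CKD, and 36.5, 8.20, 11.8 and 19.7 in Control. CKD libraries were all below Control, CKD TRF replicate 4 was within the Control range, and in Control replicate 1 was far above the other libraries. The log2 change was -1.13 ± 0.32 (limma adjusted p = 0.00742) in CKD against Control and -1.11 ± 0.32 (adjusted p = 0.0105) in CKD TRF against Control. Without Control replicate 1 the change in CKD TRF against Control was -0.74 and did not pass (adjusted p = 0.0533). With the 1 CKD TRF and 2 CKD libraries left without the 5 high in adipose markers, neither comparison passed. The differences were then -1.62 (adjusted p = 0.0612) for CKD TRF and -1.11 (adjusted p = 0.0532) for CKD against Control, larger and of similar size.

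Adam10, the sheddase of Notch receptors and cadherins, had 53.9 to 66.7 scaled reads in CKD TRF, 54.4 to 58.2 in CKD and 48.1 to 65.8 in Control. Its log2 difference was 0.01 ± 0.11 in CKD against Control (limma adjusted p = 0.938), and the groups overlapped. Adam15 was at 49.1 to 59.4 scaled reads in CKD TRF, 53.2 to 64.0 in CKD and 49.5 to 73.4 in Control, with a log2 difference of -0.08 ± 0.12 in CKD against Control (adjusted p = 0.602). The catalytically inactive members Adam11 and Adam22 had differences of 0.23 ± 0.21 and 0.20 ± 0.22, and Adam1a, a testis gene whose exons overlap Mapkapk5 and Tmem116, had -0.24 ± 0.34. None of these 5 passed in any comparison.

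In CKD TRF against Control, 7 of the 19 tested members were called, 5 higher and 2 lower, or 36.8%, beside 37.5% of all tested genes (19.5% higher and 17.9% lower). These 7, Adamts2, Adamts10, Adam8, Adam12, Adamts1, Adam17 and Adam9, were all among the 9 of CKD against Control, a comparison that shares the same Control libraries. In 5 of the 19 members the CKD TRF and Control libraries did not overlap, beside 31.9% of all tested genes, with CKD TRF higher in 4, beside 16.3%, and lower in 1, beside 15.6%. Without the 5 libraries high in adipose markers, 2 members were called for the 1 CKD TRF library left against Control, beside 10.6% of all genes, and 6 for the 2 CKD libraries left against Control, beside 29% of all genes.

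In CKD TRF against CKD, limma called 0 of the 19 tested members and 0 of all 13943 genes (0%). At an unadjusted p under 0.05 there were 890 genes and 0 members, and limma voom on the recovered reads also called 0, with 1064 genes and 0 members at that unadjusted p. The log2 differences of the members ran from -0.38 ± 0.33 for Adamts16 to 0.11 ± 0.34 for Adam1a. For the members that differed from Control they were -0.30 ± 0.20 for Adamts2, -0.27 ± 0.13 for Adamts1, -0.27 ± 0.25 for Adam8, -0.20 ± 0.25 for Adam12 and -0.12 ± 0.16 for Adamts5. Adamts10, Adam17 and Adam9 stood at -0.02 ± 0.20, 0.01 ± 0.08 and 0.02 ± 0.32. Only Adam19 had no overlap between the groups, with every CKD TRF library below every CKD library, beside 4.5% of all tested genes without overlap, 2.37% higher and 2.13% lower. Its difference of -0.31 ± 0.26 did not pass (adjusted p = 0.872).

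The members below the level limit were looked at in reads, since a whole number of reads could be recovered for each library. Adam7, an epididymal ADAM without the zinc-binding motif, had 0 reads in all 4 CKD TRF libraries, 6, 8, 9 and 6 reads in CKD, and 0 reads in all 4 Control libraries. In scaled reads, CKD stood at 0.389 to 0.522, above the 3-read limit of every library. Over each group, Adam7 was at least 8.98-fold lower in CKD TRF than in CKD and at least 6.38-fold higher in CKD than in Control, taking 3 reads over the group as the floor. It was chosen for description after its values were seen.

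Adam7 was also the only symbol of 23238 with at least 5 reads in each library of 1 group and none in the other 8 libraries. With at least 1 read in each library as the limit, 4 symbols showed such a pattern for CKD TRF, 6 for CKD and 7 for Control. These values are a description, since Adam7 was picked for this pattern and entered the unfiltered fit only through its reads in CKD. In a fit with no filter on low values, it was the single gene of 18750 called in CKD TRF against CKD, 0.00533% of genes, with a log2 change of -0.52 ± 0.06 (limma adjusted p = 0.00787). The change in CKD against Control was 0.52 ± 0.06 (adjusted p = 2.16e-05), beside 33.3% of all genes called in that fit. Its spread in these fits came, apart from the prior shared by all genes, from the 4 CKD libraries alone, since 8 libraries were at 0. The adjusted p for CKD TRF against CKD was 0.0036 to 0.0205 without each library in turn and with limma voom. This range adds no support, since the gene was picked for its pattern. Neighbouring Adamdec1 and Adam28 on chromosome 14 did not share the pattern, with 0 to 0.597 and 0.394 to 1.79 scaled reads in CKD TRF and 0 to 0.843 and 0.754 to 1.01 in CKD.

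**Figure D3:**
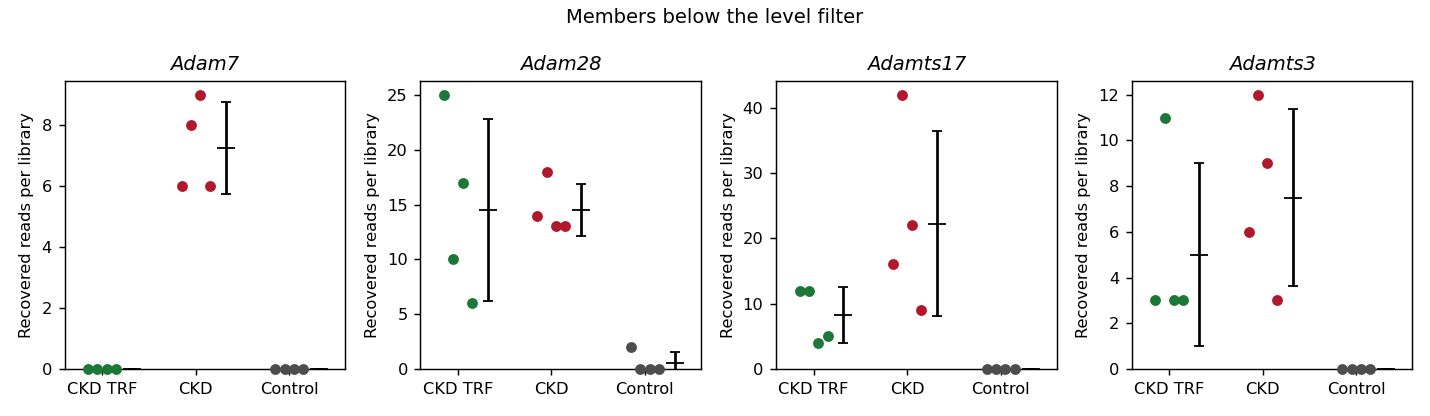
Recovered reads per library of 4 members under the level limit, with 1 point per library in CKD TRF, CKD and Control and the mean with its SD (n = 4). Adam7 has 6 to 9 reads in the CKD libraries and 0 in the other 8, while Adam28, Adamts17 and Adamts3 have reads in all 8 diseased libraries and at most 2 in a Control library.

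Another 3 members under the limit, Adam28, Adamts17 and Adamts3, had reads in all 8 diseased libraries. Adam28, known in the mouse from lymphocytes and epididymis, had 25, 10, 17 and 6 reads in CKD TRF, 14, 18, 13 and 13 in CKD, and 2, 0, 0 and 0 in Control. The ratio per scaled reads over the groups was 20.6 (95% interval for counting error 5.45 to 174) for CKD TRF against Control and 19.1 (5.06 to 162) for CKD against Control.

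Adamts17, linked in humans to short stature with lens defects, had 12, 12, 4 and 5 reads in CKD TRF, 16, 42, 22 and 9 in CKD, and 0 in all Control libraries. That put it at least 7.81-fold higher in CKD TRF and at least 19.6-fold higher in CKD than in Control. Adamts3, a relative of Adamts2 that activates vascular endothelial growth factor C, had 3, 11, 3 and 3 reads in CKD TRF, 6, 12, 9 and 3 in CKD, and 0 in all Control libraries, at least 4.74-fold and 6.60-fold higher in CKD TRF and CKD than in Control.

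With no filter these 3 genes were called in CKD against Control, beside 33.3% of all genes in that fit. Their limma adjusted p was 0.00227 for Adam28, 0.000654 for Adamts17 and 0.00717 for Adamts3. In CKD TRF against Control they were called as well, beside 26.5% of all genes in that fit, with adjusted p of 0.00269, 0.0348 and 0.0381 in the same order. Without single libraries the adjusted p in CKD TRF against Control reached 0.0124 for Adam28. It reached 0.11 for Adamts17 and 0.0823 for Adamts3, which were not called without Control replicate 1, 2, 3 or 4, CKD replicate 1 or 3, or CKD TRF replicate 1 or 2. None of the 3 was called in CKD TRF against CKD. These values are a description. Adamts17 and Adamts3 entered the unfiltered fits only through their reads in the diseased libraries, and their Control libraries, all at 0, added no spread. Adam28 had reads in only 1 Control library.

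Adamts13, the protease of von Willebrand factor, had 7, 46, 21 and 11 reads in CKD TRF, 2, 6, 8 and 6 in CKD, and 0, 1, 13 and 0 in Control. In scaled reads, every CKD TRF library was above every CKD library, with replicate 2 highest, but the log2 difference of 0.73 ± 0.29 with no filter did not pass (limma adjusted p = 0.737). The remaining 13 members of this class, among them Adam23, Adam33, Adamts4 and Adamts8, had a mean of at most 0.66 on the log2 scale and were called in no comparison of that fit.

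Some markers of other cell types also differed between the diseased groups and Control. Summed markers of fibroblasts and pericytes came to 517 to 596 scaled reads in CKD TRF, 606 to 701 in CKD and 137 to 160 in Control, and 5 of 6 were called higher in each diseased group. Summed markers of macrophages and dendritic cells were at 667 to 937 scaled reads in CKD TRF, 752 to 940 in CKD and 199 to 250 in Control, with 9 of 9 called higher in each. T cell markers came to 13.6 to 18.1 scaled reads in CKD TRF, 16.2 to 23.8 in CKD and 2.47 to 3.57 in Control. Endothelial markers came to 243 to 306 scaled reads in CKD TRF, 201 to 278 in CKD and 173 to 223 in Control, so that CKD TRF lay above Control and CKD overlapped with it, and 3 of 5 were called higher in CKD TRF and 2 of 5 in CKD. Skeletal muscle markers ran the other way, with 0.0666 to 1.15 scaled reads in CKD TRF, 0.0651 to 0.84 in CKD and 1.36 to 7.15 in Control, and the tested marker, Acta1, was called lower in both diseased groups. The highest muscle sum, 7.15, was that of Control replicate 1, which also had the highest Adam9 level. In Control replicates 2, 3 and 4 the muscle sums were 2.395, 1.361 and 2.467, beside 8.20, 11.8 and 19.7 scaled reads of Adam9. All markers of the fibroblast, macrophage, T cell and endothelial lists passed the level limit, so none of those was at 0 throughout. Of the 9 adipose markers, 8 passed it. The part of such cells in the changes of Adamts2, Adamts10, Adam8, Adam12 or Adam9 was not tested.

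**Figure D4:**
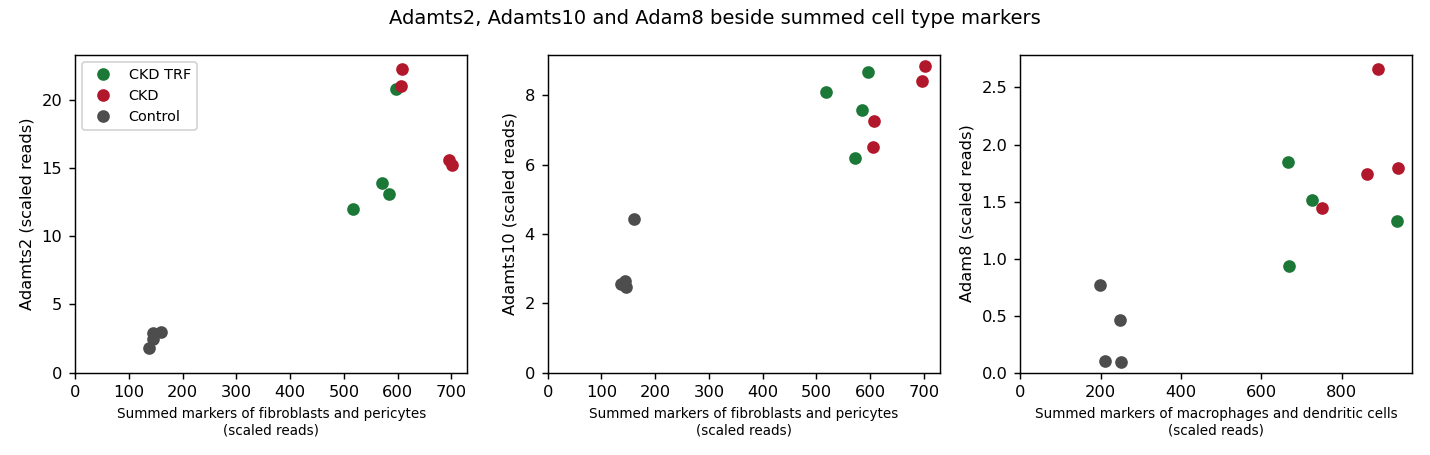
Scaled reads of Adamts2, Adamts10 and Adam8 in each of the 12 libraries, plotted against the summed scaled reads of fibroblast and pericyte markers (Adamts2, Adamts10) or macrophage and dendritic cell markers (Adam8), coloured by CKD TRF, CKD and Control. The 8 diseased libraries lie at 517 to 701 on the fibroblast and 667 to 940 on the macrophage axis, and the 4 Control libraries at 137 to 160 and 199 to 250.

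The partners of the family were taken from the listed genes of each kind. All 4 tested ADAMTS-like proteins, which share the ADAMTS matrix-binding domains but have no protease domain, rose in both diseased groups. Adamtsl1 changed by 2.54 ± 0.16 in CKD TRF and 2.69 ± 0.16 in CKD against Control (limma adjusted p = 1.02e-09 and 2.69e-10), and the fibrillin-binding Adamtsl4 by 1.31 ± 0.24 and 1.48 ± 0.24. The median over the 4 was 1.18 in CKD TRF and 1.29 in CKD, beside 0.01 and 0.02 over all tested genes. Of 4 tested inhibitors, Timp1 rose by 2.21 ± 0.25 and 2.74 ± 0.25 and Timp2 by 1.95 ± 0.13 and 2.25 ± 0.13, in CKD TRF and CKD against Control in that order. Timp3, the tissue inhibitor with the broadest known action on ADAM17 and the aggrecanases, had log2 differences of -0.12 ± 0.13 and -0.23 ± 0.13 and did not pass (adjusted p = 0.502 and 0.17).

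Of the genes that mature or guide the ADAMs, few were called. None of the 3 genes for iRhoms and the iRhom-binding Frmd8, which carry and hold ADAM17, passed in either comparison with Control, and Rhbdf2 stood at 0.14 ± 0.25 in CKD TRF and 0.40 ± 0.25 in CKD. None of the 4 proprotein convertases, which remove the ADAM prodomains, passed, with Furin at -0.18 ± 0.10 in CKD TRF and -0.19 ± 0.10 in CKD against Control. Among the 5 tested TspanC8 tetraspanins, which take ADAM10 to the cell surface, Tspan14 fell by 0.28 ± 0.10 in CKD TRF (limma adjusted p = 0.04) and by 0.46 ± 0.10 in CKD (adjusted p = 0.00125), and Tspan15 rose by 0.49 ± 0.19 in CKD against Control (adjusted p = 0.0382).

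Transcripts of known substrates formed the last lists. All 5 tested procollagens with amino-terminal propeptides were higher in both diseased groups, Col1a1 by 2.64 ± 0.13 in CKD TRF and 3.04 ± 0.13 in CKD against Control, and Col3a1 by 2.63 ± 0.12 and 3.04 ± 0.12. The median change of the 5 was 1.72 in CKD TRF and 2.08 in CKD against Control, beside 0.01 and 0.02 over all tested genes. Versican (Vcan), the tested proteoglycan substrate, changed by 1.79 ± 0.31 and 1.88 ± 0.31, in the same order. All 5 tested genes of other ADAMTS substrates rose in both, among them Fn1, which encodes fibronectin, by 2.00 ± 0.19 and 2.57 ± 0.19, Thbs1 by 1.54 ± 0.18 and 2.00 ± 0.18, Fbn2 by 1.89 ± 0.25 and 1.95 ± 0.25 and Fbn1 by 1.53 ± 0.16 and 1.82 ± 0.16.

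Of 7 tested ADAM17 substrates, 4 rose in CKD TRF and 5 in CKD, both against Control. The tumour necrosis factor receptor gene Tnfrsf1b changed by 1.17 ± 0.16 in CKD TRF and 1.39 ± 0.16 in CKD against Control, and the interleukin-6 receptor gene Il6ra by 0.76 ± 0.22 and 1.29 ± 0.22. Of 9 tested ADAM10 substrates 4 rose in each diseased group, with Cx3cl1 at 0.91 ± 0.10 and 1.14 ± 0.10, Notch1 at 0.72 ± 0.15 and 1.05 ± 0.15, Notch2 at 0.96 ± 0.17 and 1.03 ± 0.17 and Cxcl16 at 0.65 ± 0.10 and 0.51 ± 0.10. The medians were 0.49 and 0.75 for the ADAM17 substrates and 0.40 and 0.28 for the ADAM10 substrates, in CKD TRF and CKD against Control in that order. In CKD TRF against CKD no gene of any of these lists was called.

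Promoters are shown for Adamts2 and Adamts1, which rose, and Adam17, which fell, as 250 bases before to 50 bases after the annotated start, from RefSeq on GRCm38.p6. Matches to the Sp1 GC box (GGGCGG on either strand) and to the TATA motif (TATAAA) are in capitals, and none of them overlaps another.
Adamts2 promoter (chr11:50601835-50602134, plus strand): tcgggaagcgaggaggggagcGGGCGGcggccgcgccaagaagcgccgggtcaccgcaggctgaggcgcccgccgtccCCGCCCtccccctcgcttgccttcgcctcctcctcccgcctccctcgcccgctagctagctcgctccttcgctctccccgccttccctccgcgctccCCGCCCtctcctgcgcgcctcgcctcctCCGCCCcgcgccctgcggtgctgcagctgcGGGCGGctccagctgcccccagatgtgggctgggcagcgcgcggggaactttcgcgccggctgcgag
Adamts1 promoter (chr16:85803064-85803363, minus strand): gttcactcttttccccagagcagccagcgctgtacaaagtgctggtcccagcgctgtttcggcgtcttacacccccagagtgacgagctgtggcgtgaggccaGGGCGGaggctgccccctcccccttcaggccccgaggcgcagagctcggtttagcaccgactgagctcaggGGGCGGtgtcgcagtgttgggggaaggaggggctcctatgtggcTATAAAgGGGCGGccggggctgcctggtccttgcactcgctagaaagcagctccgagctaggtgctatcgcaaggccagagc
Adam17 promoter (chr12:21373583-21373882, minus strand): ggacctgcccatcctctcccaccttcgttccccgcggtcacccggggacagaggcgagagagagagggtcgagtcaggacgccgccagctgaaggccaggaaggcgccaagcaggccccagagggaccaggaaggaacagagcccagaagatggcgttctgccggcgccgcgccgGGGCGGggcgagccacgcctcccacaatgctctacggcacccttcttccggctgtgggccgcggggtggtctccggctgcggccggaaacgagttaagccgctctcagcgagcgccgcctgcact

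A promoter was matched for 27 of the 52 members, including 5 of the 9 called in CKD against Control. A gene was counted as holding a motif if any of its listed starts did, which matters for Adam19, with 3 starts. The GC box was found in all 5, in 8 of the 22 other members and in 38.2% of 27025 genes. These sets are not alike, since the 22 include members at 0 throughout and the 27025 were not limited to tested genes. Of the tested but uncalled members with a promoter, Adam15, Adam10 and Adamts9 held the GC box, and Adam22 and Adam1a did not. The AP-1 motif (TGANTCA) was found in 1 of the 5, Adam19, in 4 of the other 22 and in 8.97% of all genes. The E-box (CACGTG) and the TATA motif were each found in 1 of the 5, beside 8.09% and 15.7% of all genes. Both strands were searched, and a match describes the letters in this window only.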

How the data were processed

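Kidney RNA of 12 libraries was extracted with Trizol and made into QuantSeq 3′ libraries, per the labels' protocols. Bowtie2, bedtools and mm10 are named, with no role, per the submitters' processing notes; the scaling method and strand setting are not given in the sources used here. Each library's deposited values are log2 of a scaled read number plus 1, a unit read from the values, not from a header. The authors' scaled numbers were whole reads times a factor per library: 98.6% to 100% of values below 20 lay within 0.1 of a whole read.

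For 35 symbols with several entries, none a member, that of the highest mean level was used. The upper 60% of symbols by mean log2 (at least 0.729), 13943 genes, entered 1 limma 3.58.1 model (R 4.3.3) of the 3 groups on the log2 values, with a trended prior, two-sided tests and Benjamini-Hochberg adjustment over all tested genes at 0.05. Recovered reads were used for limma voom and for members near 0. The depth recovery and the limma test were tested on simulated data.

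Members called in any comparison were given by library, other tested members by range and change, and the rest by counts; of the other lists, up to 4 of the called genes with the largest changes were named. Timp3, Rhbdf2 and Furin were named after their values were seen. A listed gene is not reported here. The members and lists were chosen with earlier results of these data known. Alternatives covered scaling, pseudocount, filter, model, marker covariates and leaving out libraries; unfiltered fits with voom and without single libraries were added after seeing the data. The asparagine form of the zinc motif was added after a first search.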

Additional observations from a re-analysis of the deposited data

Results flagged for a closer look

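In 4 of the 57 groups of 4 libraries examined, 1 library stood apart from the other 3 by Dixon's test at the 95% level, a rate that chance gives in about 1 of 20 groups. Adam19 in CKD TRF had a log2 level of 1.96 in replicate 4, against 2.08 to 2.10 in the other 3 libraries. Adamts7 in CKD had 0.86 in replicate 3, against 1.79 to 1.88 in the others. Adam12 and Adamts10 in Control both had replicate 2 as the high library, at 2.36 against 1.40 to 1.56 for Adam12 and at 2.44 against 1.79 to 1.86 for Adamts10.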

How the results depend on the processing

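Under 12 alternatives and 12 fits without single libraries, the number of members called kept within 1.5 times of the reported one except as follows. With genes in the upper 40% by mean, 8 members were tested. Of these, 5 were called in CKD against Control and 4 in CKD TRF against Control, beside 51.3% and 43% of all genes. With covariates for adipose and urothelial markers, 2 (Adamts2 and Adamts1) and 0 were called, beside 7.65% and 1.14% of all genes; the sums of both lists do not overlap between diseased and Control libraries, and the median SE of the members was 0.48 against 0.25 without covariates in CKD against Control. In that fit, Adam19 in CKD against Control turned to -0.17 (limma adjusted p = 0.869), and Adam9 in CKD TRF against Control turned to 0.10 (adjusted p = 0.962). Without the 5 libraries high in adipose markers, which leaves 1 CKD TRF library, 2 members were called in CKD TRF against Control. With no filter, 1 member, Adam7, was called in CKD TRF against CKD, the only gene of 18750 (0.00533%). That call is a description, since Adam7 was picked for its pattern and entered this fit only through its reads in CKD. Fits without single libraries called 7 to 10 members in CKD against Control, beside 38.6% to 45.3% of all genes. In CKD TRF against Control these fits called 6 to 9, beside 31.5% to 36.9%, and in CKD TRF against CKD they called 0. Same-numbered libraries did not deviate together (correlations -0.18 to 0.11), which cannot show whether the numbers pair the libraries. With replicate number as a block, 9 members were called in CKD against Control, beside 44% of all genes. In CKD TRF against Control 7 were called, beside 36.1%, and between the diseased groups 0. These counts of members were the same without the block. Of the changes of single members under all alternatives, 1424 kept their side of the threshold, of which 102 were uncalled and changed sign, 54 lost a call, 11 gained one and 2 reversed. Depth limits members near 0: 1 to 9 reads stand behind each Control value of Adam8. The cause of these differences was not tested.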
